A study of Mus musculus with 12 samples.

Results

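Natural killer (NK) cells were picked out of single-cell RNA sequencing of mouse white adipose tissue. The sequenced material was the stromal vascular fraction (SVF), the cells that remain after collagenase digestion once the floating adipocytes are removed. A cell counted as an NK cell when it held at least 1 unique molecular identifier (UMI, one counted RNA molecule) of Ncr1 or Klrb1c, at least 2 UMIs of Nkg7 and Gzma together, and none of Cd3d, Cd3e, Cd3g, Adgre1 or Cd79a. This rule gave 1082 NK cells of 126095 cells that passed the filters on cells, 519 from epididymal (eWAT) and 563 from inguinal white adipose tissue (iWAT). All mice were male and 12 weeks old. The WT-Veh group was C57BL/6J mice given methylcellulose vehicle. Mice of the other groups were Lepob/Lepob, which make no working leptin in any cell and become obese. They received vehicle (ob/ob-Veh) or rosiglitazone (Rosi, group ob/ob-Rosi), an agonist of PPARγ, at 30 mg/kg by gavage morning and evening for 3 days. Each depot had 2 libraries per group, labelled as biological replicates, and lean mice given Rosi were not analysed here. Comparisons of expression used UMIs summed over the NK cells of each library, for libraries with at least 20 NK cells. These were both WT-Veh libraries, both ob/ob-Veh libraries and ob/ob-Rosi replicate 2 in eWAT, and WT-Veh replicate 2 and both ob/ob-Rosi libraries in iWAT.

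NK cells are innate lymphocytes that kill infected, stressed or transformed cells without rearranged antigen receptors. They weigh activating receptors such as NKp46 (Ncr1) and NKG2D (Klrk1) against inhibitory receptors for MHC class I, which in mice are mostly the Ly49 (Klra) lectins, and kill by releasing perforin and granzymes. They also secrete interferon-gamma and chemokines, and in adipose tissue they are known to talk to macrophages during obesity.

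The 12 libraries held 20132553 to 92475986 UMIs, with a median of 1132 to 4961 UMIs per kept cell. NK cells had a median of 983.5 to 2629 UMIs, and the summed NK libraries that entered the fits held 69393 (eWAT WT-Veh replicate 1) to 906272 UMIs (iWAT WT-Veh replicate 2). The label check used Lep, whose transcript the ob/ob mutation leaves in place, per 100 UMIs of the adipocyte transcript Adipoq over all kept cells. In eWAT this ratio was 28.0 and 42.5 under the WT-Veh label, 3.96 and 16.2 under the ob/ob-Veh label and 240 and 390 under the ob/ob-Rosi label. Lep is known to be high in adipocytes of untreated ob/ob mice, so the eWAT values go against the labels. They rest on few molecules, with 33 and 37, 7 and 43, and 60 and 277 Lep UMIs in these groups, and 25 (ob/ob-Rosi replicate 1) to 265 Adipoq UMIs. In iWAT it was 20.1 and 31.6 in WT-Veh, 36.4 and 15.1 in ob/ob-Veh, and 164 and 141 in ob/ob-Rosi. Trem2, a gene of lipid-associated macrophages, stood over all kept cells at 1110 and 915 CPM (UMIs scaled to 1000000 per library) in eWAT WT-Veh, 35.0 and 49.5 CPM in ob/ob-Veh and 930 and 1177 CPM in ob/ob-Rosi, and in iWAT at 199 and 241 CPM in WT-Veh, 22.3 and 8.73 CPM in ob/ob-Veh and 252 and 270 CPM in ob/ob-Rosi. Lipid-laden cells can float off with the adipocytes during the preparation and are then missing from the SVF, and the part of this in the Trem2 values was not tested. Every difference between groups depends on the labels being right. Gm42418, a transcript that overlaps ribosomal RNA, made up 2.98% to 10.3% of NK UMIs in all replicate 1 libraries and iWAT ob/ob-Veh replicate 2, against 0.113% to 0.434% in the other libraries. No NK barcode occurred in more than 1 library's NK cells (0 shared), and any pair of libraries shared at most 1.05% of the smaller one's barcodes. Nothing in the labels says that libraries of one number in both depots come from 1 mouse. The study's methods describe the samples as handled and sequenced together, and its text speaks of single mice.

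The genes of the rule describe the cells and support nothing, since they chose them. Ncr1 (chr7:4337724-4345164 on GRCm38), the activating receptor that defines NK cells and related innate lymphocytes, stood at 286 to 462 CPM, that is, UMIs scaled to 1000000 NK UMIs per library, in the 8 fitted libraries. Klrb1c (chr6:128778485-128789215), which encodes NK1.1, stood at 380 to 680 CPM. Nkg7, a granule membrane protein, and Gzma, a granule protease, stood at 1328 to 1990 and 2354 to 4699 CPM. Of the cells, 410 entered with exactly 1 receptor UMI, 288 with 2 and 384 with 3 or more, while 540 cells that met the other parts of the rule had none. At the granule step 83 cells entered with exactly 2 UMIs, and 119 with 1 UMI stayed outside. At the T cell step 66 cells stayed outside for a single Cd3 UMI and 233 for 2 or more.

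Genes outside the rule are described next. To compare cells of unequal depth, each cell was thinned to 700 UMIs and set against CD8 T cells (1342 cells, chosen by Cd3 and Cd8 transcripts) and stromal cells (26929), a class that should lack lymphocyte genes and so shows the background from free RNA. Another 299 T cells with Cd3 UMIs also met the receptor and granule parts of the NK rule and were kept out of both classes, so the CD8 T shares of NK genes are set in part by the rules. Of the CD8 T cells 698 came from 1 library, iWAT WT-Veh replicate 1, so shares without it (644 cells) are given as well, an alternative chosen after seeing the data. Klrk1 (NKG2D) was detected in 38.7% of thinned NK cells, 4.32% of CD8 T cells (6.99% without that library) and 0.119% of stromal cells. Klrd1 (CD94) was detected in 35.0%, 7.53% (7.14%) and 0.201%, and Prf1 (perforin) in 23.1%, 3.28% (5.12%) and 0.0520%. In unthinned NK cells these shares were 74.9%, 69.5% and 50.9%. The transcription factors Eomes and Tbx21 (T-bet), which NK cells need to mature, were in 11.1% and 8.41% of thinned NK cells, against 4.47% and 1.12% of CD8 T cells (8.85% and 2.02% without that library). In iWAT WT-Veh replicate 2, which held the most NK cells, Eomes was in 7.17% of NK and 13.4% of CD8 T cells. Trac, the constant part of the T cell receptor alpha chain, went the other way, at 0.832% of NK and 20.6% (30.0%) of CD8 T cells. Trbc1 was at 27.4% and 28.5% (37.7%), and NK cells are known to transcribe this beta-chain constant gene without rearranging it. Cd27 was at 15.4% and 16.5% (21.7%). For these genes the pooled order of NK and CD8 T cells was the same with and without iWAT WT-Veh replicate 1, but Ifng turned, from 5.45% of NK and 3.13% of CD8 T cells to 5.47% and 6.37%.

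**Figure D1:**
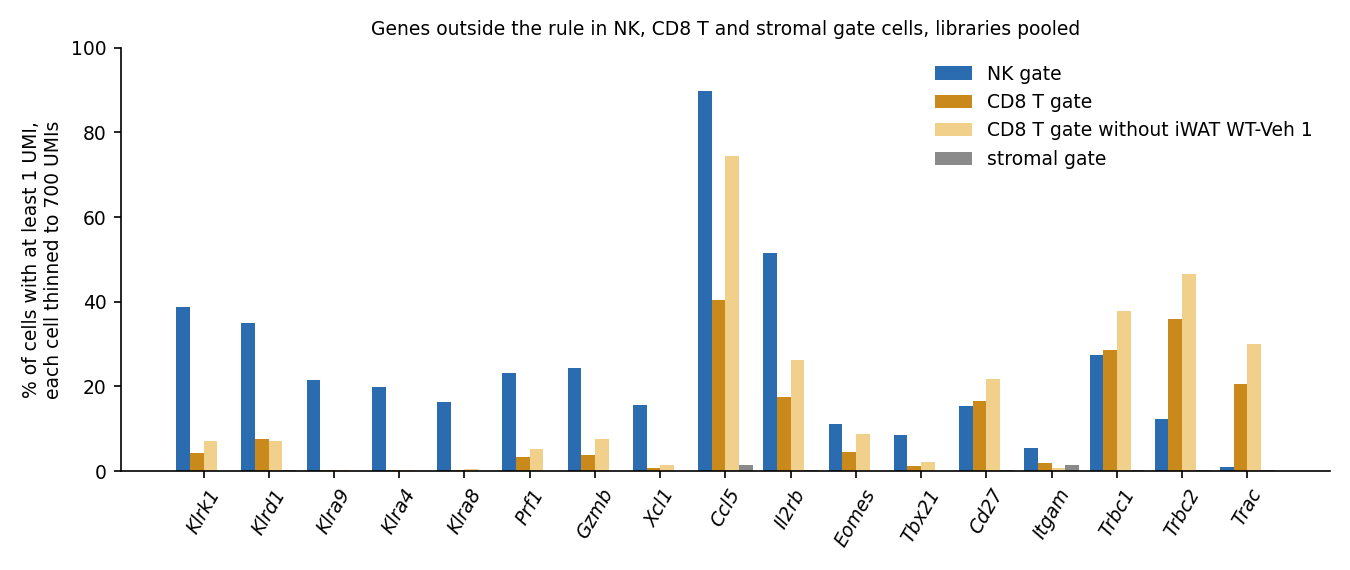
Percent of cells with at least 1 UMI (y axis, every cell thinned to 700 UMIs) for genes that the rule did not use (x axis), in NK, CD8 T and stromal cells of all libraries pooled, and in CD8 T cells without iWAT WT-Veh replicate 1 (pale bars). Ccl5 reached 89.7% of NK cells and 40.3% of CD8 T cells, or 74.4% without that library, Ly49 genes were near 0 outside NK cells, and of the 3 classes Trac was high in CD8 T cells.

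Killer lectins were detected widely in NK cells. Of 24 listed genes, 23 lie in one stretch of chromosome 6, chr6:128609227-131247362 on GRCm38, 2638 kb long, which holds Klrb1c as well. Ly49 genes are close copies of each other, so the assignment of UMIs among them is uncertain. Klra4 stood at 225 to 612 CPM with a median of 357 over the 8 NK sums, Klra9 at 202 to 497 and Klra8 at 183 to 521. In CD8 T sums of the same libraries the highest values were 7.03, 7.03 and 36.5 CPM, so the ranges did not meet. Klrk1 stood at 276 to 762 CPM, Klrd1 at 430 to 669 and Klre1, an NK lectin that pairs with Klri1 or Klri2, at 190 to 591.

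Single NK cells differed in how many Ly49 genes were detected in them. Of the 1082 cells, 262 had no UMI of Klra1, Klra3, Klra4, Klra7, Klra8 or Klra9, 315 had 1 of these receptors, 246 had 2, 172 had 3 and 87 had 4 or more. The share of cells with 2 or more was 27.8% and 55.6% in the eWAT WT-Veh libraries, 45.6% and 46.9% in ob/ob-Veh, 43.6% in ob/ob-Rosi replicate 2, and 47.3% to 62.5% in the 3 iWAT libraries. The lowest share came from eWAT WT-Veh replicate 1, whose NK cells were also the shallowest of the 8, with a median of 1098.5 UMIs.

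Of the granzyme genes, several had no UMI. Gzmb (granzyme B) stood at 366 to 841 CPM and Prf1 at 290 to 556 CPM, while Gzmc reached at most 42.1 CPM and Gzmk, which marks other lymphocyte subsets, at most 18.7 CPM. Gzmd, Gzme, Gzmf and Gzmg had no UMI in any NK sum. Among secreted products Ccl5, a chemokine for T cells and monocytes, stood at 5681 to 9743 CPM. Xcl1, which draws in cross-presenting dendritic cells, stood at 61.3 to 593 CPM, and Ifng (interferon-gamma) at 14.4 to 89.3 CPM. Il2rb, the receptor chain through which interleukin-15 keeps NK cells alive, stood at 533 to 1628 CPM.

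Markers of conventional NK cells and of tissue-resident group 1 innate lymphoid cells were both detected. Itga2 (CD49b) of conventional NK cells stood at 53.4 to 221 CPM and Itga1 (CD49a) of resident cells at 9.34 to 174 CPM, but the other kept cells of these libraries held 12.3 to 136 CPM of Itga1. The summed resident list was 746 to 1698 CPM in NK sums and 791 to 1515 CPM in the other cells. Within single libraries it stood above that background in some and below it in others. It was 1698 against 791 CPM in eWAT ob/ob-Veh replicate 1, but 746 against 1103 CPM in iWAT ob/ob-Rosi replicate 1. Eomes, absent from many resident cells, stood at 72.1 to 243 CPM. Cxcr6 and Zfp683 of resident cells reached at most 41.2 and 4.25 CPM. Cycling cells were few: 48 of 1082 held 2 or more UMIs of 12 cell cycle genes, and the share was 1.24% to 7.41% in the 8 fitted libraries.

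**Figure D2:**
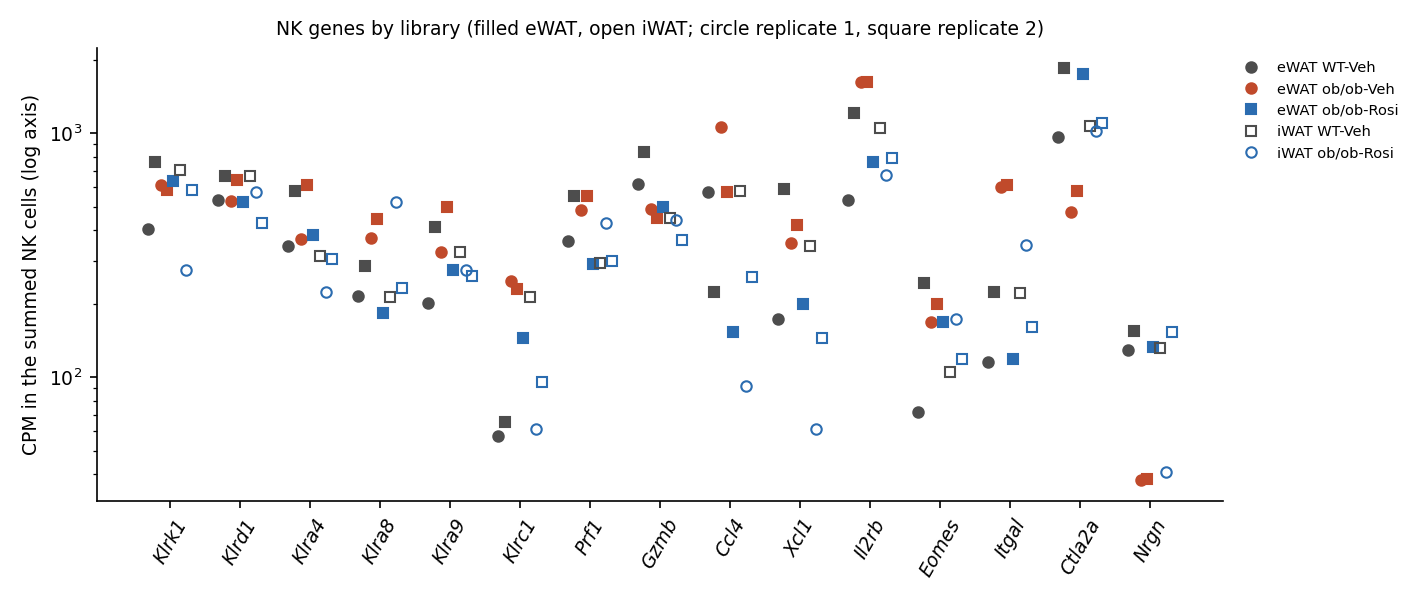
CPM in the summed NK cells (y axis, log scale) of 15 NK genes (x axis) in the 8 libraries with at least 20 NK cells; filled points are eWAT, open points iWAT, circles replicate 1 and squares replicate 2. In eWAT Klrk1 and Klrd1 overlapped between WT-Veh and ob/ob-Veh, Nrgn and Ctla2a were lowest in eWAT ob/ob-Veh, and Itgal was highest there.

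The contrast with CD8 T cells of the same libraries is given as a description with no test, since the rules chose both kinds of cell by their transcripts. Nrgn (chr9:37544492-37552904), a calmodulin-binding protein best known from neurons, stood at 37.8 to 154 CPM in NK sums and 0 to 4.30 CPM in CD8 T sums. Car2 (carbonic anhydrase 2) stood at 40.9 to 164 CPM against 0 to 12.4. The T cell factor Bcl11b stood at 10.2 to 37.8 CPM in NK sums and 108 to 280 in CD8 T sums, and Themis, a T cell signalling protein, at 0 to 4.67 against 81.4 to 156. The fit across genes called 12.6% of all 5254 tested genes, 6.3% each way, and nothing is read from these calls.

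NK cells were a small and uneven share of the kept cells, and in every group replicate 1, given first, had the lower share. In eWAT they made up 0.367% (95% Wilson interval 0.281% to 0.478%) and 1.39% (1.13% to 1.71%) of kept cells in WT-Veh, 0.982% (0.800% to 1.21%) and 1.05% (0.842% to 1.30%) in ob/ob-Veh, and 0.170% (0.104% to 0.275%) and 1.87% (1.62% to 2.15%) in ob/ob-Rosi. The ob/ob-Veh pair lay between the members of both other pairs. In iWAT the shares were 0.0234% (0.00912% to 0.0603%) and 2.98% (2.66% to 3.33%) in WT-Veh, 0.0833% (0.0382% to 0.182%) and 0.111% (0.0563% to 0.219%) in ob/ob-Veh, and 0.331% (0.234% to 0.467%) and 1.26% (1.1% to 1.43%) in ob/ob-Rosi. Here both ob/ob-Rosi libraries exceeded both ob/ob-Veh libraries, and the WT-Veh libraries were the lowest and the highest of the depot. These intervals cover counting error only, and the replicates lay outside each other's intervals in both WT-Veh and both ob/ob-Rosi groups.

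No difference in NK share passed the test. Mean shares in eWAT were 0.879% ± 0.724 (SD of 2 libraries) in WT-Veh, 1.01% ± 0.0446 in ob/ob-Veh and 1.02% ± 1.20 in ob/ob-Rosi. The log2 change was 0.21 ± 1.17 (SE) in ob/ob-Veh relative to WT-Veh and 0.01 ± 1.17 in ob/ob-Rosi relative to ob/ob-Veh (edgeR's quasi-likelihood test, adjusted p = 0.86 and 0.99 over 12 cell classes). In iWAT the means were 1.5% ± 2.09, 0.0972% ± 0.0197 and 0.794% ± 0.655. The log2 change there was −3.93 ± 1.94 in ob/ob-Veh relative to WT-Veh and 3.02 ± 1.87 in ob/ob-Rosi relative to ob/ob-Veh (adjusted p = 0.10 and 0.34 by the same test). Without iWAT WT-Veh replicate 2 the first of these turned to 2.00. Exact two-sided permutation tests of 2 against 2 libraries cannot go below p = 0.33.

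The iWAT WT-Veh libraries differed in their lymphocytes as a whole. Replicate 1 held 2205 cells in the lymphocyte classes, among them 698 CD8 T, 280 CD4 T and 272 B cells, but 4 NK cells, which was 0.181% of these lymphocytes. In replicate 2 NK cells were 23.5% of lymphocytes. Across eWAT the share of lymphocytes was 14.0% to 41.1%, with both extremes in ob/ob-Rosi. Lymph nodes lie within inguinal fat, and their part in this was not tested.

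**Figure D3:**
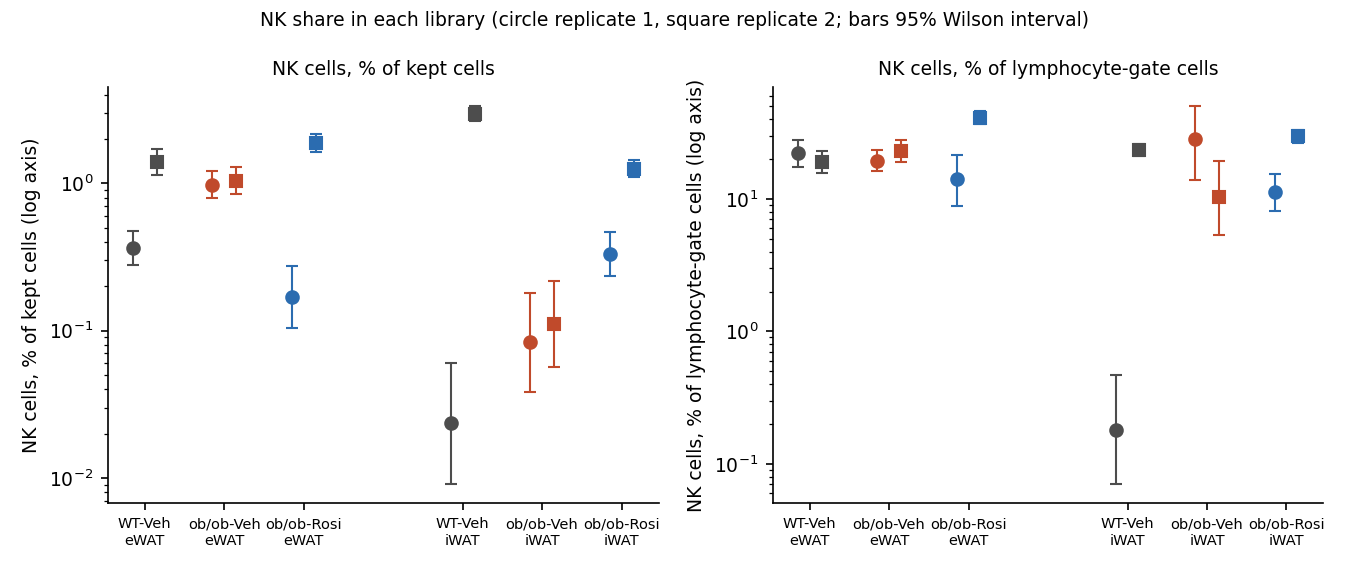
NK cells as a percent of all kept cells (left) and of cells in the lymphocyte classes (right), both on log axes, in each of the 12 libraries, with 95% Wilson intervals; circles are replicate 1 and squares replicate 2. The widest gap within a group is iWAT WT-Veh, at 0.0234% and 2.98% of kept cells.

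In eWAT, NK cells of ob/ob-Veh libraries held less of a set of macrophage and lipid genes than those of WT-Veh libraries. They held more Retnla, Zfp36, Adamts4 and Tnfaip6. NK receptor and granule genes passed in neither direction, but few genes of any kind passed. Of 5492 genes tested, 32 were called (0.583%), 10 higher (0.182%) and 22 lower (0.401%) in ob/ob-Veh, with both an adjusted p up to 0.05 and a minimum change of 1.1-fold required. In sums of this kind, fewer cells that express a gene and less RNA per cell cannot be told apart. Of the 32 called genes, 24 (75.0%) were below the level of all other kept cells of the same library in every library, against 17.6% of the genes tested, and 31 changed in the same direction there, beside 3966 of the 5492 genes tested. A fit with the replicate number as a block gave 128 calls in place of the 32, 55 higher and 73 lower. NK cells without any UMI of 8 genes of macrophages, stroma, vessels and B cells were 3.70% and 5.56% of NK cells in WT-Veh. They were 23.3% and 18.5% in ob/ob-Veh and 2.13% in ob/ob-Rosi replicate 2, so most NK cells held such RNA. The part of RNA from other cells in these changes was not tested.

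Among the lowered genes Trem2 (chr17:48346401-48354147), the lipid receptor of lipid-associated macrophages, stood at 259 and 271 CPM in the WT-Veh sums and 10.3 and 4.25 CPM in the ob/ob-Veh sums, a log2 change of −5.17 ± 0.53 (SE, adjusted p = 0.00014). In all other kept cells Trem2 stood at 1112 and 919 CPM against 35.2 and 49.7 CPM. Gpnmb, a lysosomal glycoprotein of the same macrophages, fell from 159 and 145 to 3.44 and 17.0 CPM (−4.03 ± 0.57, adjusted p = 0.0018). Apoe, a lipid carrier, fell from 5029 and 2845 to 368 and 672 CPM (−3.06 ± 0.35, adjusted p = 0.00033), beside 19822 and 18177 against 2503 and 3479 CPM in the other cells. The fatty acid carrier Fabp4 went from 4323 and 836 to 107 and 268 CPM (−3.91 ± 0.59, adjusted p = 0.0030), and the lipid droplet protein Plin2 from 620 and 388 to 79.0 and 51.0 CPM (−2.99 ± 0.41, adjusted p = 0.0017). Genes were named only from those whose groups did not overlap, so their separation is no finding. Of the higher and lower genes named by rule for this comparison, 7 stayed called by DESeq2 and 9 did not. Fabp5, the matrix protein Mgp and the monocyte chemokine Ccl8 completed the lowered genes named by rule, at log2 changes of −3.26, −3.76 and −2.60.

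The genes higher in ob/ob-Veh were of several kinds. Adamts4, an aggrecan-cleaving protease of stroma, had no UMI in either WT-Veh sum and stood at 92.8 and 128 CPM in ob/ob-Veh, at least 10.2-fold higher when the WT-Veh group is set to 3 UMIs. Tnfaip6, a hyaluronan-binding protein made under inflammation, stood at 14.4 and 0 against 162 and 72.3 CPM, a ratio of 34.5 (95% counting interval 5.97 to 1380). Slc15a2, a peptide transporter, stood at 0 and 9.34 against 68.7 and 140 CPM, a ratio of 14.3 (3.76 to 121). Retnla, a secreted product of alternatively activated macrophages, rose from 216 and 23.4 to 924 and 1237 CPM (log2 change 3.49 ± 0.58, adjusted p = 0.0066), beside 516 and 178 against 4704 and 4241 CPM in the other cells. Zfp36, which destabilises cytokine mRNAs, rose from 159 and 98.1 to 849 and 472 CPM (2.37 ± 0.44, adjusted p = 0.018). Id3, an inhibitor of E proteins that lymphocytes use in development, rose from 43.2 and 37.4 to 172 and 242 CPM (2.24 ± 0.45, adjusted p = 0.030). Hnrnph1 and BC005537 were the other higher genes named by rule, at 2.04 and 1.98.

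Only 2 of the called genes were above the level of the other cells in every library, and both fell, beside 1549 of the 5492 genes tested (826 with a higher and 723 with a lower value in ob/ob-Veh). They were singled out after their values were seen. Nrgn stood at 130 and 154 CPM in WT-Veh and 37.8 and 38.3 CPM in ob/ob-Veh (log2 change −2.06 ± 0.43, adjusted p = 0.034), where other cells held 0.976 to 7.84 CPM. In iWAT Nrgn stood at 132 CPM in WT-Veh and 40.9 and 154 CPM in ob/ob-Rosi, so it was as uneven there within 1 group. Ctla2a (chr13:60934155-60936625), a cathepsin inhibitor of activated lymphocytes, stood at 966 and 1845 against 478 and 582 CPM (−1.57 ± 0.34, adjusted p = 0.049), where other cells held 32.7 to 123 CPM. Nrgn was called in 7 of 11 settings, with log2 changes of −5.64 to −1.91. Ctla2a was called in 8 of 12 settings, with log2 changes of −1.76 to −1.41.

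Described by lists, the NK genes held 1 call, Id3, which was kept in 5 of 11 alternative settings and lost without ob/ob-Veh replicate 2, WT-Veh replicate 1 or WT-Veh replicate 2 (edgeR's adjusted p = 0.066, 0.11 and 0.25). Of 29 tested NK identity genes 0 were called by edgeR's quasi-likelihood test and 0 by DESeq2, 4 had an unadjusted p under 0.05, and the median log2 change was 0.04, beside 0.03 over all genes. Of 17 killer lectins 0 were called by either tool, 2 had an unadjusted p under 0.05 and the median was 0.18. Klrc1 (NKG2A, an inhibitory partner of Klrd1) came nearest, at 57.6 and 65.4 against 247 and 230 CPM (log2 difference 1.78 ± 0.41, adjusted p = 0.061). Of 15 cytotoxic granule genes 0 were called by either tool, with 2 at an unadjusted p under 0.05 and a median of 0.07. The median was 1.04 for secreted cytokines and chemokines, whose sum was 7061 and 9120 against 7726 and 8650 CPM. It was −0.44 for other receptors and adaptors and 0.65 for transcription factors. Of 24 transcription factors Id3 was the one called gene, and 17 homing receptors had 0 calls by either tool, 6 at an unadjusted p under 0.05 and a median of 0.67, with sums of 3026 and 3761 against 5660 and 5585 CPM. Itgal (chr7:127296260-127335138), the LFA-1 integrin chain, stood at 115 and 224 against 605 and 616 CPM (1.59 ± 0.37, adjusted p = 0.061), and was called in 4 of 12 settings, with log2 differences of 1.02 to 1.75 over them.

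Lists of other kinds are given next. Of 20 macrophage genes 7 were called lower and 0 higher, with a median of −1.63, and their summed level in NK cells was 11399 and 8302 CPM in WT-Veh and 1828 and 2844 CPM in ob/ob-Veh, beside 48760 and 45154 against 9589 and 14223 CPM in the other cells. None of the 20 was at 0 in all NK sums. Of 30 genes known to answer tissue digestion 2 were called higher, Zfp36 and Egr1, 15 had an unadjusted p under 0.05 and the median was 0.71, and their sum was 11154 and 11787 against 17352 and 16165 CPM, beside 14087 and 16116 against 26663 and 21819 CPM in the other cells and 12158 and 9845 against 15469 and 13779 CPM in CD8 T cells. All 78 tested ribosomal protein genes had a log2 value below 0, with a median of −0.75, but 0 were called by edgeR and 4 by DESeq2, and 53 had an unadjusted p under 0.05. Their sum was 212514 and 257782 CPM in WT-Veh and 152328 and 164624 CPM in ob/ob-Veh. Scaling by library size alone moved the median of all genes by 0.15 and gave 34 higher and 24 lower calls in place of 10 and 22. Without WT-Veh replicate 1 the 32 calls became 5, and without WT-Veh replicate 2 they became 14.

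**Figure D4:**
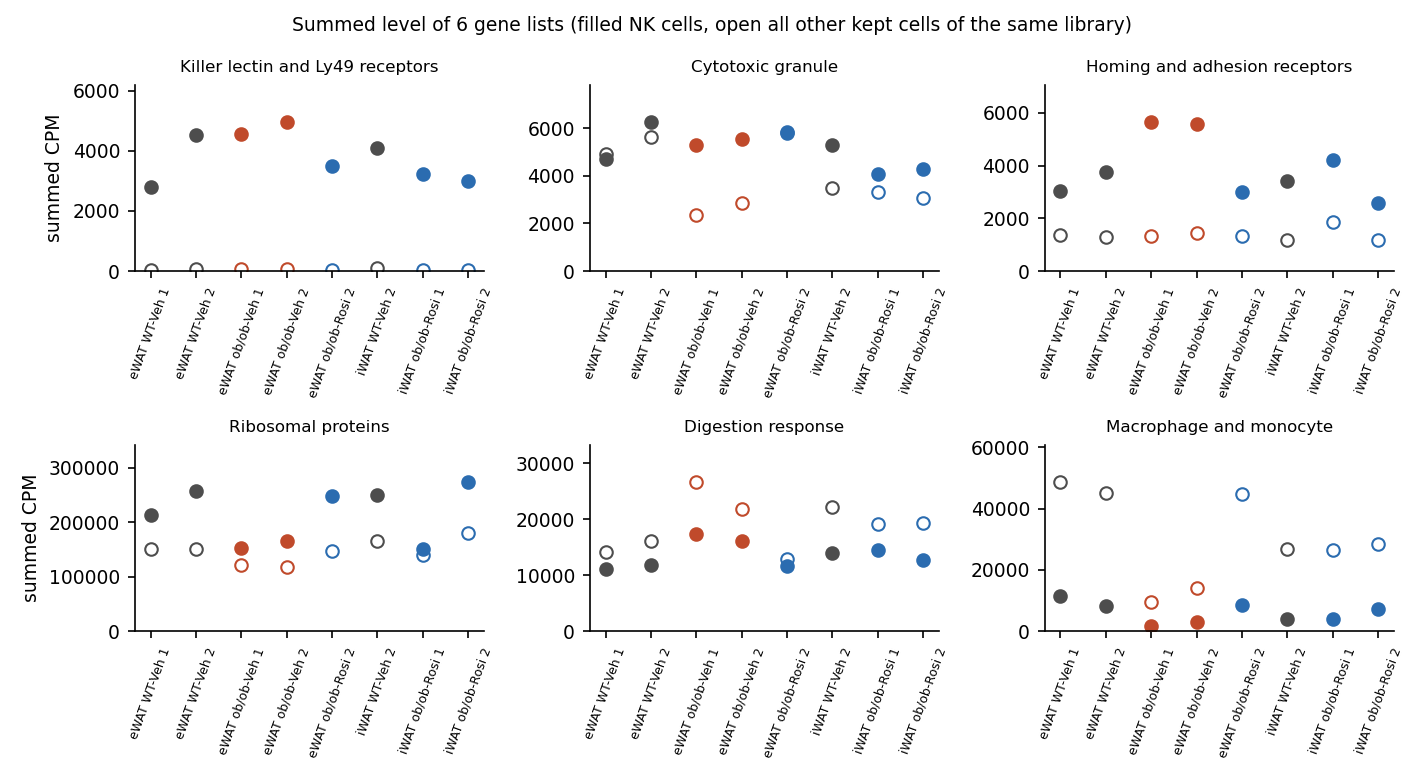
Summed CPM (y axis, from 0) of 6 gene lists in NK cells (filled) and in all other kept cells of the same library (open), for the 8 libraries with at least 20 NK cells; grey is WT-Veh, red ob/ob-Veh and blue ob/ob-Rosi. In eWAT the macrophage and ribosomal sums in NK cells were lowest in ob/ob-Veh, as were those of the other cells, and the killer lectin sum was 2796 and 4522 CPM in WT-Veh, 4571 and 4960 CPM in ob/ob-Veh and 3501 CPM in ob/ob-Rosi.

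The Rosi comparison in eWAT rests on a single fitted ob/ob-Rosi library, replicate 2, which is assumed to vary like the other groups; replicate 1 had 16 NK cells and 20835 NK UMIs, and its values are given beside those of replicate 2 for the genes named. NK cells of this library held more macrophage, ribosomal and glycolytic transcripts than those of both ob/ob-Veh libraries, and less Itgal, Ccl4, Retnla and Zfp36. Of 5492 genes 130 were called (2.37%), 88 higher (1.6%) and 42 lower (0.765%). Since this comparison and the one above share the ob/ob-Veh libraries, a gene that was extreme in ob/ob-Veh appears in both, and no overlap between them is counted. Against ob/ob-Veh, 61 of the 130 called genes (46.9%) were below the other cells' level in every library, beside 25.3% of genes tested, and 123 changed in the same direction in the other cells, beside 4310 of the 5492 tested. In those other cells the sums in replicate 2 against ob/ob-Veh were 44706 against 9589 and 14223 CPM for macrophage genes, 146624 against 120449 and 118080 CPM for ribosomal proteins and 4120 against 1736 and 1757 CPM for glycolysis. Of the 30 tested digestion genes 3 were called lower, Zfp36, Egr1 and Nr4a3, and 0 higher, 12 had an unadjusted p under 0.05 and the median was −0.59. Their sum was 11666 CPM in replicate 2 and 12431 CPM in replicate 1, against 17352 and 16165 CPM in ob/ob-Veh, and in the other cells 12924 and 13923 against 26663 and 21819 CPM. In CD8 T cells the sum was 10385 CPM in replicate 2 and 16255 CPM in replicate 1, against 15469 and 13779 CPM, so replicate 1 did not fall there.

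The genes named by rule as higher in ob/ob-Rosi replicate 2 were of macrophages and of other kinds. Trem2 stood at 282 CPM in ob/ob-Rosi replicate 2 and 432 in replicate 1, against 10.3 and 4.25 CPM in ob/ob-Veh (log2 change 5.30 ± 0.54, adjusted p = 0.00012). Gpnmb stood at 221 and 48.0 CPM in these ob/ob-Rosi libraries against 3.44 and 17.0 (4.63 ± 0.55, adjusted p = 0.00054), and Lgals3 (galectin-3) at 1583 and 2448 against 285 and 170 (2.94 ± 0.40, adjusted p = 0.0013). The named genes also held Mmp12, a macrophage elastase at 111 CPM (48.0 in replicate 1) against 6.87 and 4.25, a ratio of 19.5 (6.35 to 97.6), and Mcpt4, a mast cell protease at 105 CPM (0 in replicate 1) against 13.7 and 0. Hbb-bs (beta-globin, from red cells) stood at 127 CPM (96.0 in replicate 1) against 17.2 and 12.8. The fatty acid carrier Fabp5 stood at 219 CPM (384 in replicate 1) against 41.2 and 25.5, and the matrix gene Mgp at 656 (1152) against 51.5 and 162. Of the 20 macrophage genes 9 were called higher and 0 lower, with a median of 1.89, and 9 were also called with both ob/ob-Rosi libraries in the fit.

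Lower after Rosi, Retnla stood at 9.95 CPM in replicate 2 against 924 and 1237 CPM in ob/ob-Veh (log2 change −6.51 ± 0.87, adjusted p = 0.0013), but at 336 CPM in replicate 1. Il6, a cytokine that stroma and macrophages make in inflammation, was at 0 in both ob/ob-Rosi libraries against 30.9 and 204 CPM, so the size of its fall depends on the ob/ob-Veh library. Adamts4, Tnfaip6 and Slc15a2 stood at 3.98, 5.97 and 1.99 CPM, which gave ratios of ob/ob-Veh to ob/ob-Rosi of 27.2 (7.20 to 230), 20.4 (6.67 to 101) and 50.6 (8.70 to 2040). All 3 were at 0 in replicate 1, but with 20835 NK UMIs there a 0 says little for genes at these levels. Igkc (immunoglobulin light chain, from B lineage cells) stood at 1.99 CPM (0 in replicate 1) against 120 and 242 CPM, and Lyz1 at 5.97 (96.0) against 51.5 and 221. Zfp36 fell to 77.6 CPM (−2.94 ± 0.52, adjusted p = 0.0093) and stood at 288 CPM in replicate 1. The naming rule took only genes for which replicate 2 lay below both ob/ob-Veh libraries, so this order is no finding.

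Of the called genes, 38 were above the other cells' level in every library, 26 higher and 12 lower, beside 2151 of the 5492 genes tested (939 with a higher and 1212 with a lower value). The following were picked from the called genes after their values were seen. Itgal fell from 605 and 616 to 119 CPM (−2.18 ± 0.45, adjusted p = 0.019) and stood at 336 CPM in replicate 1, where other cells held 5.78 to 22.5 CPM. Ccl4 (chr11:83662584-83664683), a chemokine that activated NK cells release, fell from 1062 and 574 to 153 CPM (−2.27 ± 0.56, adjusted p = 0.045) and stood at 528 CPM in replicate 1. Nr4a3, an immediate early nuclear receptor of activated lymphocytes, fell from 275 and 264 to 45.7 CPM (−2.37 ± 0.44, adjusted p = 0.013), with 96.0 CPM in replicate 1. Nabp1, a single-stranded DNA-binding protein, fell from 619 and 553 to 93.5 CPM (−2.47 ± 0.43, adjusted p = 0.0093), with 336 CPM in replicate 1. Nrgn and Ctla2a stood at 133 and 1748 CPM in replicate 2, against 37.8 and 38.3 and against 478 and 582 CPM (1.97 ± 0.43 and 1.91 ± 0.39, adjusted p = 0.030 and 0.019), and at 0 and 672 CPM in replicate 1. Serpinb9b, a granzyme inhibitor, rose from 17.2 and 42.5 to 111 CPM (2.11 ± 0.51, adjusted p = 0.042), with 288 CPM in replicate 1. With both ob/ob-Rosi libraries in the fit Nabp1, Nr4a3 and Serpinb9b stayed called (adjusted p = 0.047, 0.016 and 0.036), and Itgal, Nrgn, Ctla2a and Ccl4 did not (0.063, 0.11, 0.20 and 0.16).

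Within ob/ob-Rosi, the sums of ribosomal, translation and glycolysis genes were high in replicate 2 alone, and that of nuclear respiratory chain genes in both libraries. In every other group too, the NK sums of ribosomal, translation and glycolysis genes were higher in replicate 2 than in replicate 1. For ribosomal proteins, replicates 1 and 2 held 212514 and 257782 CPM in eWAT WT-Veh, and 150838 and 273869 CPM in iWAT ob/ob-Rosi. The part of the replicate number in the sums of the fitted ob/ob-Rosi library was not tested. In all other kept cells the respiratory chain sum was 18181 CPM in replicate 2 and 16377 CPM in replicate 1, against 11704 and 12862 CPM in ob/ob-Veh. In CD8 T cells it was 17487 and 14271 against 12958 and 12586 CPM. Of 78 ribosomal protein genes 15 were called higher and 0 lower, 72 lay above 0 and the median was 0.82, and DESeq2 called 15. Rplp0, a protein of the ribosomal stalk, stood at 5323 CPM against 1911 and 1836 (1.68 ± 0.32, adjusted p = 0.015), but at 1968 CPM in replicate 1. The summed level was 248247 CPM in replicate 2 and 149220 CPM in replicate 1, beside 152328 and 164624 CPM in ob/ob-Veh, and with both ob/ob-Rosi libraries 0 ribosomal genes were called. Of 38 translation factors 7 were called higher, Eif3f and Eif3h among them, and of 14 glycolytic genes Gapdh, Ldha and Pkm were called higher. Gapdh stood at 989 CPM against 299 and 404 (1.68 ± 0.36, adjusted p = 0.026), with 432 CPM in replicate 1, and Ldha, lactate dehydrogenase A, at 555 against 227 and 225 CPM (1.47 ± 0.36, adjusted p = 0.046), with 240 CPM in replicate 1. Pkm stood at 428 CPM in replicate 2 and 96.0 CPM in replicate 1, Eif3f at 1164 and 240 CPM and Eif3h at 569 and 480 CPM. The glycolysis sum was 3777 CPM in replicate 2 and 1920 CPM in replicate 1, against 1832 and 2096 CPM in ob/ob-Veh, and the translation factor sum 23662 and 12143 against 14554 and 16433 CPM. Of 76 nuclear respiratory chain genes 2 were called higher, with a median of 0.68 and sums of 19437 CPM in replicate 2 and 17183 CPM in replicate 1 against 12647 and 14456 CPM, and of the 13 genes of mitochondrial DNA 0 were called by edgeR or DESeq2, 2 had an unadjusted p under 0.05 and the median was −0.39.

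The NK lists again held few or no calls, but few genes of any kind were called. Among 29 NK identity genes and 17 killer lectins 0 were called by edgeR or DESeq2, with 3 at an unadjusted p under 0.05 in each and medians of −0.10 and −0.39. Among 15 granule genes 0 were called by either tool, with 2 at an unadjusted p under 0.05 and a median of 0.25. Homing receptors had Itgal as their 1 called gene of 17, 9 at an unadjusted p under 0.05 and a median of −1.08, and their sum was 3004 CPM in replicate 2 but 6575 CPM in replicate 1. Secreted cytokines and chemokines had a median of −0.65, and other receptors and adaptors one of 0.05. Pparg, the receptor Rosi acts on, stood at 0 to 51.1 CPM in NK sums. Scaling by library size alone moved the median of all genes by −0.19 and gave 51 higher and 88 lower calls in place of 88 and 42, and 4 ribosomal calls in place of 15. Without ob/ob-Veh replicate 1 the 130 calls became 43, and the ribosomal calls became 1 without either ob/ob-Veh library and 33 without either WT-Veh library.

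**Figure D5:**
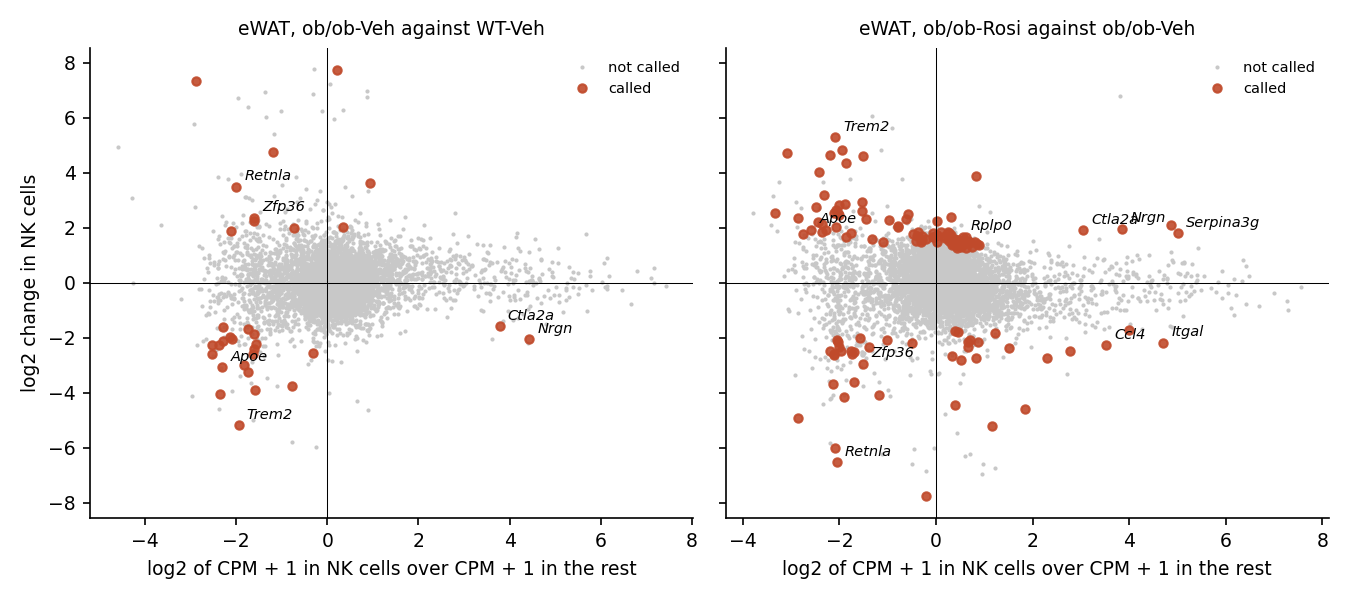
Log2 change in eWAT NK cells (y axis) against the log2 ratio of CPM + 1 in NK cells to CPM + 1 in all other kept cells of the library (x axis) for each tested gene, called genes in red (for genes without UMIs in a group the fitted change depends on the prior count), with ob/ob-Veh against WT-Veh in one panel and ob/ob-Rosi against ob/ob-Veh in the other. Most called genes of the first comparison lie left of 0 (24 of 32 below the other cells' level in every library), and in the second 38 of the 130 called genes are above that level in every library, among them Itgal, Ccl4, Ctla2a and Nrgn.

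Against WT-Veh, eWAT ob/ob-Rosi replicate 2 differed in 2 of 5492 genes (0.0364%), with 150 at an unadjusted p under 0.05, and DESeq2 called 0. Hbb-bs had no UMI in WT-Veh and stood at 127 CPM, at least 12-fold higher, and Igkc stood at 115 and 150 CPM against 1.99 CPM. Neither is an NK gene, and both were below the other cells' level in every library.

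In iWAT, ob/ob-Veh had 6 and 8 NK cells, so its NK expression was not compared under the 20-cell minimum. The 2 ob/ob-Rosi libraries were set against WT-Veh replicate 2 alone, with 1 residual degree of freedom and the lone WT-Veh library assumed to vary like the ob/ob-Rosi pair, and 17 of 7892 genes were called (0.215%), all higher in ob/ob-Rosi. DESeq2 called 0, with 92 at an unadjusted p under 0.05, against 267 in edgeR. They included Flt1, Cdh5, Cav1 and Ptprb of vessels and 4 globin genes of red cells, and none of the 17 was above the other cells' level in every library, beside 2142 of the 7892 genes tested. Rgs5, a pericyte marker, was higher by a ratio of 49.3 (16.5 to 243) and Mmp3, a stromal protease, by a ratio of 32.5 (10.7 to 161). The globin gene Hbb-bt was at 0 in WT-Veh and at 0 and 132 CPM in ob/ob-Rosi, so its call rests on replicate 2. The summed endothelial list was 3726 CPM in WT-Veh against 20613 and 5027 CPM in ob/ob-Rosi NK cells, beside 16905 against 23142 and 11025 CPM in the other cells. The part of RNA from these cells was not tested. NK identity genes and killer lectins had 0 calls by edgeR or DESeq2, 2 of each at an unadjusted p under 0.05, and medians of −0.51 and −0.51.

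Between depots, NK cells of iWAT held, in the fit of all UMIs, more Pi16 and Igfbp5, which stroma makes, and more Cdh5 and Ptprb, which vessels make. They held less Trem2, Gpnmb and Cd68 of macrophages. NK receptor genes did not pass, but few genes of any kind did. The comparison averaged WT-Veh and ob/ob-Rosi in each depot. The eWAT ob/ob-Veh libraries are among the 8 of the fit but not part of this comparison, since iWAT ob/ob-Veh was not fitted. Over 8 libraries 64 of 6469 genes were called (0.989%), 56 higher (0.866%) and 8 lower (0.124%) in iWAT. DESeq2 called 6 higher and 4 lower, and with cells thinned to 700 UMIs the balance turned to 3 higher and 11 lower. All 64 differed the same way in the other cells of the libraries, beside 4481 of the 6469 genes tested. None of the 64 was above the other cells' level in every library, beside 1178 of those tested. A fit with the replicate block gave 105 calls in place of the 64, 91 higher and 14 lower. Pi16, a marker of stromal progenitors, stood at 5.97 to 110 CPM in eWAT and 271 to 868 CPM in iWAT NK sums (log2 difference 4.27 ± 0.49). Igfbp5, an IGF-binding protein of stroma, stood at 0 to 80.8 against 210 to 1839 CPM (3.96 ± 0.58). The eWAT ranges of both genes include the ob/ob-Veh libraries, which the log2 differences leave out. Trem2 was lower in iWAT by −2.64 ± 0.38 and Mgp by −4.55 ± 0.51. Of 29 NK identity genes 0 were called by edgeR or DESeq2, with 1 at an unadjusted p under 0.05 and a median of −0.17, and of 17 killer lectins 0 by either tool, with 2 and a median of −0.03. Among 20 homing receptors Itga1 was the 1 called gene, higher in iWAT, as it was in the other cells. Without eWAT ob/ob-Rosi replicate 2 the 64 calls became 3, without eWAT WT-Veh replicate 2 they became 17, without eWAT WT-Veh replicate 1 97 and without iWAT ob/ob-Rosi replicate 2 155. A difference of the group effect between depots was called for Igkc and AY036118 of 6469 genes (0.0309%, 247 at an unadjusted p under 0.05), and DESeq2 called 0.

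Whether NK cells answered as CD8 T cells of the same eWAT libraries did was tested as a difference of effects. For ob/ob-Veh against WT-Veh 8 of 5552 genes differed (0.144%), 4 each way, for ob/ob-Rosi relative to ob/ob-Veh 7 (0.126%), and for ob/ob-Rosi against WT-Veh 4 (0.072%). For ob/ob-Veh relative to WT-Veh the lowest adjusted p was that of the chemokine Ccl4. It stood at 576 and 224 CPM in WT-Veh and 1062 and 574 CPM in ob/ob-Veh NK cells, and at 215 and 197 against 21.1 and 110 CPM in CD8 T cells, and the NK effect exceeded the CD8 T effect by 3.32 ± 0.52 on the log2 scale (edgeR's quasi-likelihood test, adjusted p = 8.3e-07). Ccl3, a chemokine related to Ccl4, stood at 28.8 and 46.7 against 124 and 59.5 CPM in NK cells and at 80.7 and 69.0 against 7.03 and 0 CPM in CD8 T cells. These CD8 T sums held 21 and 117 cells in WT-Veh and 33 and 23 cells in ob/ob-Veh. They held 37176 and 391164 UMIs against 142155 and 82153 UMIs, so their low values of both chemokines rest on few molecules. Both Rosi comparisons had only replicate 2 on the ob/ob-Rosi side, in a fit with 2 residual degrees of freedom. They therefore hold no estimate of the spread between ob/ob-Rosi mice, and only effect sizes are given for them. Fabp4 had the lowest adjusted p in both. Its NK effect minus CD8 T effect was −3.68 relative to WT-Veh and −2.58 relative to ob/ob-Veh. The CD8 T sum of ob/ob-Rosi replicate 2 also held 7251 CPM of the endothelial list, against 302 to 1480 CPM in the other fitted eWAT CD8 T sums and 1309 CPM in its NK sum, and 286 CPM of the mesothelial list against 0 to 24.3 and 145 CPM. None of the 10 endothelial markers was at 0 in all NK sums, and the endothelial list's median difference of effect was −3.60 relative to ob/ob-Veh and −2.95 relative to WT-Veh. The part of RNA from these cells in the differences was not tested. With every cell thinned to 700 UMIs the counts became 0, 0 and 1 by edgeR (62, 53 and 33 at an unadjusted p under 0.05), and the 8 became 0 without ob/ob-Rosi replicate 2 (123 at an unadjusted p under 0.05) and 2 without ob/ob-Veh replicate 2.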

How the data were processed

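Libraries were made with a droplet 3′ kit, and the authors deposited raw UMI counts per gene and barcode (31053 genes, 12 libraries) made with bcl2fastq 2.19.1.403 and Cell Ranger 3.0.2 against mm10, per the labels; 3′ counts carry no length scaling, so levels are not compared between genes. iWAT matrices were partly filtered before deposit. Cells with 700 to 22000 UMIs, 200 to 6000 genes and under 25% mitochondrial UMIs were kept, with no doublet caller, and sorted into 12 classes by UMIs of marker genes; the kept totals per library limit the precision of each share. UMIs of NK cells were summed per library and tested with edgeR 4.0.16 (R 4.3.3; TMM, filterByExpr, quasi-likelihood test, Benjamini-Hochberg) in place of the authors' Wilcoxon test over cells, so that libraries are the unit of replication. A call needed an adjusted p no higher than 0.05 and at least a 1.1-fold change. Each SE was derived as the absolute log2 change divided by the square root of the F statistic of the test. The 9 genes of the rule were left out of calls. The design foresaw all 6 libraries of a depot, but the 20-cell minimum left 5 in eWAT, 3 in iWAT and 8 over both.

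The members and the gene lists were chosen with earlier results of these data known. Named genes were the 8 with the highest log2 change each way among called genes whose groups did not overlap and whose higher group reached 100 CPM (10 each way between depots and against CD8 T cells); all other genes in the text were picked from the lists or the called genes after their values were seen. A gene with 0 UMIs in a group was set to 3 UMIs there, and one with 1 to 3 got a counting interval. Gene positions came from GENCODE vM21, and 553 of 553 identifiers asked for were found. In simulated eWAT data 51.6% of genes changed 4-fold and 1.05% of those changed 2-fold were called for ob/ob-Veh against WT-Veh (4957 genes in the step), with 2 unchanged genes among 51 called. For ob/ob-Rosi against ob/ob-Veh the shares were 54.7% and 5.75% (4638 genes), with 2 of 59. One gene is not reported here. The alternatives were DESeq2 1.42.0, other scalings, filters, depths and cell rules, the replicate number as a block, and leaving out each library.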

Additional observations from a re-analysis of the deposited data

Results flagged for a closer look

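Genes whose change in NK cells differed from that in CD8 T cells of the same eWAT libraries are given as the NK effect minus the CD8 T effect on the log2 scale (edgeR's quasi-likelihood test of the difference). For genes without UMIs in a group these fitted values depend on the prior count. For ob/ob-Veh against WT-Veh the difference was 5.12 for Ccl3, 3.32 for Ccl4, 2.34 for Stmn1 and 2.24 for Ptms, and −5.08 for Slpi, −2.14 for Ccl9, −1.83 for Fn1 and −1.47 for Lyz2. Stmn1, a microtubule regulator of dividing cells, stood at 187 and 159 against 107 and 115 CPM in NK cells and at 403 and 401 against 91.4 and 0 CPM in CD8 T cells, so both fell in value and the CD8 T values fell further. Fn1, which macrophages and stroma make, stood at 331 and 243 against 797 and 510 CPM in NK cells and at 108 and 102 against 971 and 901 CPM in CD8 T cells.

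The only fitted ob/ob-Rosi library had 56 CD8 T cells, whose sum held 7251 CPM of endothelial and 286 CPM of mesothelial list genes, against 302 to 1480 and 0 to 24.3 CPM in the other fitted eWAT CD8 T sums, and the part of this in the following values was not tested. For ob/ob-Rosi against ob/ob-Veh the difference was 1.74 for Lyz2, and −7.91 for Fmo2, −3.96 for Il1b, −3.82 for Timp3, −2.71 for Igfbp6, −2.58 for Fabp4 and −1.16 for Ccl5. For ob/ob-Rosi against WT-Veh it was −5.70 for Slpi, −4.43 for Efemp1, −3.68 for Fabp4 and −2.69 for Igfbp6. Fabp4 stood at 107 and 268 CPM in ob/ob-Veh and 925 CPM in ob/ob-Rosi replicate 2 NK cells, and at 127 and 268 against 5767 CPM in CD8 T cells. Ccl5, which both kinds of cell make, stood at 5681 and 6920 against 8386 CPM in NK cells and at 3552 and 2471 against 8598 CPM in CD8 T cells.

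The effect of ob/ob-Rosi against WT-Veh differed between depots for Igkc by 9.54 and for AY036118, a transcript next to ribosomal RNA, by 8.93. AY036118 stood at 2147 and 220 CPM in eWAT WT-Veh, 51.7 CPM in eWAT ob/ob-Rosi replicate 2, 25.4 CPM in iWAT WT-Veh replicate 2 and 1267 and 70.7 CPM in iWAT ob/ob-Rosi, so the high values were all in replicate 1 libraries.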

How the results depend on the processing

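Of the alternative values of single named genes 567 kept their direction and their side of the threshold, 119 kept the direction alone and 0 changed direction. For the counts below the cause of a change was not tested. In eWAT, ob/ob-Veh against WT-Veh gave 32 calls, which became 58 with library size alone, 89 without a filter on low counts, 81 with cells thinned to 700 UMIs and 108 with at least 2 receptor UMIs. Leaving out each library gave 5 to 46. For ob/ob-Rosi against ob/ob-Veh the 130 calls became 43 by DESeq2, 261 without the filter, 364 with at least 2 receptor UMIs, 29 without cells holding T cell receptor UMIs, 45 with all libraries in one fit and 51 with no minimum of cells (an alternative chosen after seeing the data), and 43 to 176 on leaving out each library but ob/ob-Rosi replicate 2, the only one of its group. For ob/ob-Rosi against WT-Veh the 2 calls became 0 by DESeq2 (34 at an unadjusted p under 0.05), 11 without the filter, 6 thinned, 6 with at least 2 receptor UMIs, 11 without T cell receptor UMIs, 1 in one fit and 0 to 11 on leaving out the same libraries. For ob/ob-Rosi against WT-Veh in iWAT the 17 became 0 by DESeq2, 9 without the filter, 0 thinned (34 at an unadjusted p under 0.05) and 5 with no minimum. With no minimum, the iWAT ob/ob-Veh sums gave 3 calls against WT-Veh and 3 for ob/ob-Rosi against them, of 1431 genes each.

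Between depots the 64 calls became 10 by DESeq2, 14 thinned (3 higher and 11 lower, against 56 and 8) and 3 to 155 on leaving out each library, and the 2 differences between depots became 0 by DESeq2 (119 at an unadjusted p under 0.05), 7 thinned, 8 with no minimum and 1 to 29. The shares of CD8 T cells with a UMI without iWAT WT-Veh replicate 1 stand in the report. NK against CD8 T cells gave 662 calls, 581 by DESeq2, 290 without T cell receptor UMIs and 263 thinned. The differences of effect from CD8 T cells became 0, 0 and 1 thinned (62, 53 and 33 at an unadjusted p under 0.05), and 0 to 7, 2 to 9 and 0 to 13 on leaving out each library (without ob/ob-Rosi replicate 2 only the first could be fitted).

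The direction of the NK share in eWAT turned for ob/ob-Veh against WT-Veh when thinned (−0.17) and without T cell receptor UMIs (−0.18), and for ob/ob-Rosi against ob/ob-Veh with at least 2 receptor UMIs (−0.27). In iWAT it turned as a share of lymphocytes (0.65 for ob/ob-Veh and 0.80 for ob/ob-Rosi, each against WT-Veh) and for ob/ob-Rosi against WT-Veh without T cell receptor UMIs (0.47). Leaving out each library gave −0.46 to 1.46, −2.57 to 0.88 and −2.36 to 1.47 in eWAT (in the order ob/ob-Veh relative to WT-Veh, then ob/ob-Rosi relative to ob/ob-Veh, then relative to WT-Veh), and −4.92 to 2.00, 1.76 to 3.68 and −2.18 to 5.03 in iWAT.

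The labels do not say whether libraries of one number share a mouse, the study's methods describe a single batch, the Gm42418 share differed by number, and same-numbered libraries deviated together in eWAT (correlations of 0.211 to 0.255 over 15845 genes of all kept cells) but not throughout iWAT (−0.12, −0.116 and 0.58). With the replicate block, calls for ob/ob-Veh against WT-Veh in eWAT became 128, for ob/ob-Rosi against WT-Veh 4 and between depots 105. Under the block the NK share in eWAT became −0.82 for ob/ob-Rosi relative to ob/ob-Veh and −0.093 relative to WT-Veh, and in iWAT 0.12 for ob/ob-Rosi against WT-Veh.

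Not run were the eWAT ob/ob-Rosi comparisons of expression without ob/ob-Rosi replicate 2, and NK cells free of UMIs of other lineages (178 cells, too few per library). In iWAT alone the stricter cell rules, the block and left-out libraries were not run. The difference of the group effect between depots was not run without eWAT ob/ob-Rosi replicate 2 or iWAT WT-Veh replicate 2. The counts of NK cells limit every comparison: changes of 2-fold were almost never called in the simulated data, so a gene that was not called is not shown to be equal.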
